A study of Mus musculus with 8 samples.

Results

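The 10 transcripts described here, Pecam1, Cdh5, Kdr, Tek, Tie1, Vwf, Cldn5, Emcn, Eng and Aqp1, are genes commonly used to recognise endothelial cells, the cells that line blood vessels. They were chosen by symbol as well-known endothelial markers, and all 10 were found among the 22756 genes counted in each library. In α7E260A:G mice 9 of 10 were lower in both female than in both male libraries, as were 49.7% of the 14140 genes with enough counts. Cldn5 and Emcn, 2 of 10, were lower in all 4 α7E260A:G libraries than in all 4 α7G libraries, as were 5.46% of those genes. Both counts are without correction for the length of the coding sequence. With that correction Pecam1, Emcn and Eng were the ones without overlap between the genotypes, and no share over all genes is given on that scale. In edgeR without that correction no member passed the test of genotype or of cigarette smoke (CS) over all 8 libraries. For genotype 1 of 9 passed by DESeq2 (5.93% of genes) and 1 or 2 with the correction (3.49% to 9.38% of genes). For CS in α7G 1 of 9 passed by DESeq2 (0.347% of genes).

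RNA-Seq was done on cells of the distal lung of adult mice with 2 alleles of Chrna7, the gene of the α7 nicotinic acetylcholine receptor. The α7G line carries a tau-GFP reporter behind Chrna7 (Chrna7-IRES-tauGFP), and the α7E260A:G line was made in that background and adds a substitution that restricts calcium flux through the receptor (Chrna7-E260A-IRES-tauGFP), so all mice carry the reporter, on a largely C57BL/6 background. Mice of each genotype breathed room air (control) or, for 4 months and on 5 days of each week, side-stream CS, and each of the 4 groups has 1 male and 1 female library. The lungs were lavaged and CD45+ leukocytes were removed with magnetic beads, which left a preparation described as almost entirely epithelial, with very few cells positive for CD31, the protein of Pecam1. The number of mice behind a library is not given in the sources used here, so p-values measure the spread between these libraries, which within a group is also the difference between a male and a female library.

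Endothelial cells of the lung form the capillary wall across which gas is exchanged, and they hold that wall together through junction proteins and keep it stable through a small set of surface receptors. VE-cadherin (Cdh5), claudin-5 (Cldn5) and CD31 (Pecam1) join neighbouring cells. The VEGF receptor VEGFR2 (Kdr), the angiopoietin receptor Tie2 (Tek), its partner Tie1 and the TGF-β family co-receptor endoglin (Eng) carry growth and quiescence signals. Von Willebrand factor (Vwf) is secreted for platelet adhesion, endomucin (Emcn) is a surface sialomucin of capillaries and veins, and aquaporin-1 (Aqp1) is a water channel of lung capillaries that red blood cells also express.

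In the annotation used for counting (GENCODE M1, mouse build mm9), the junction genes are Pecam1 (ENSMUSG00000020717.11) on chromosome 11 from 106515531 to 106611942, Cdh5 (ENSMUSG00000031871.8) on chromosome 8 from 106625525 to 106668402 and Cldn5 (ENSMUSG00000041378.1) on chromosome 16 from 18776940 to 18778353. The receptors are Kdr (ENSMUSG00000062960.6) on chromosome 5 from 76328852 to 76374483, Tek (ENSMUSG00000006386.9) on chromosome 4 from 94405980 to 94541667, Tie1 (ENSMUSG00000033191.6) on chromosome 4 from 118143796 to 118162666 and Eng (ENSMUSG00000026814.9) on chromosome 2 from 32502115 to 32538189. The others are Vwf (ENSMUSG00000001930.10) on chromosome 6 from 125496792 to 125636697, Emcn (ENSMUSG00000054690.10) on chromosome 3 from 137004031 to 137095149 and Aqp1 (ENSMUSG00000004655.5) on chromosome 6 from 55286426 to 55298549. Reads were counted on the CDS, which is between 654 bases long in Cldn5 and 8552 bases in Vwf, so untranslated parts of the transcripts did not contribute.

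The total counts lay between 8020726 and 10944100 per library, so that 3 counts, taken as the floor, correspond to 0.274 to 0.374 RPM, the count of a gene scaled to the library's total. Libraries differed in how counts depended on the length of the coding sequence (CDS): the log2 deviation from the mean library changed per doubling of CDS length by 0.41 in the male α7E260A:G control, by 0.23 and 0.19 in the male α7G control and male α7E260A:G CS, by 0.06 in the female α7G control, and by -0.20 to -0.24 in the other four. The fits were therefore repeated with this dependence removed by an offset (the CDS length offset), and results are given with and without it where it matters. Endothelial transcripts were present in every library and well above the floor, but they were not the main content. The 10 members together took from 0.0412% of all counts in the female α7E260A:G control (95% Wilson interval 0.0400% to 0.0424%) to 0.115% in the male α7E260A:G control (0.113% to 0.117%), intervals that cover counting error only. Per kilobase of CDS, the epithelial marker Epcam had a mean of 138 RPM per kb and the leukocyte gene Ptprc, which encodes CD45, had 309 RPM per kb, against 79.1 RPM per kb for Pecam1.

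On this scale, on which genes can be set beside each other, the members' mean level over the 8 libraries was highest for Aqp1, at 170.4 ± 52.5 RPM per kb (SD, n = 8). Cldn5 followed at 97.6 ± 41.0, Pecam1 at 79.1 ± 21.3, Cdh5 at 46.0 ± 17.6 and Eng at 38.9 ± 13.1 RPM per kb. The lower levels were those of Emcn at 20.4 ± 10.5, Tie1 at 17.7 ± 6.87, Vwf at 15.1 ± 6.97, Kdr at 14.3 ± 5.66 and Tek at 13.8 ± 5.41 RPM per kb. The ranges of each gene and the next in this order overlapped. Aqp1 exceeded Cldn5, Pecam1 exceeded Cdh5 and Eng exceeded Emcn in 8 of 8 libraries, whereas the order from Emcn through Tie1, Vwf, Kdr and Tek held for each neighbouring pair in only 4 or 5 of 8.

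**Figure D1:**
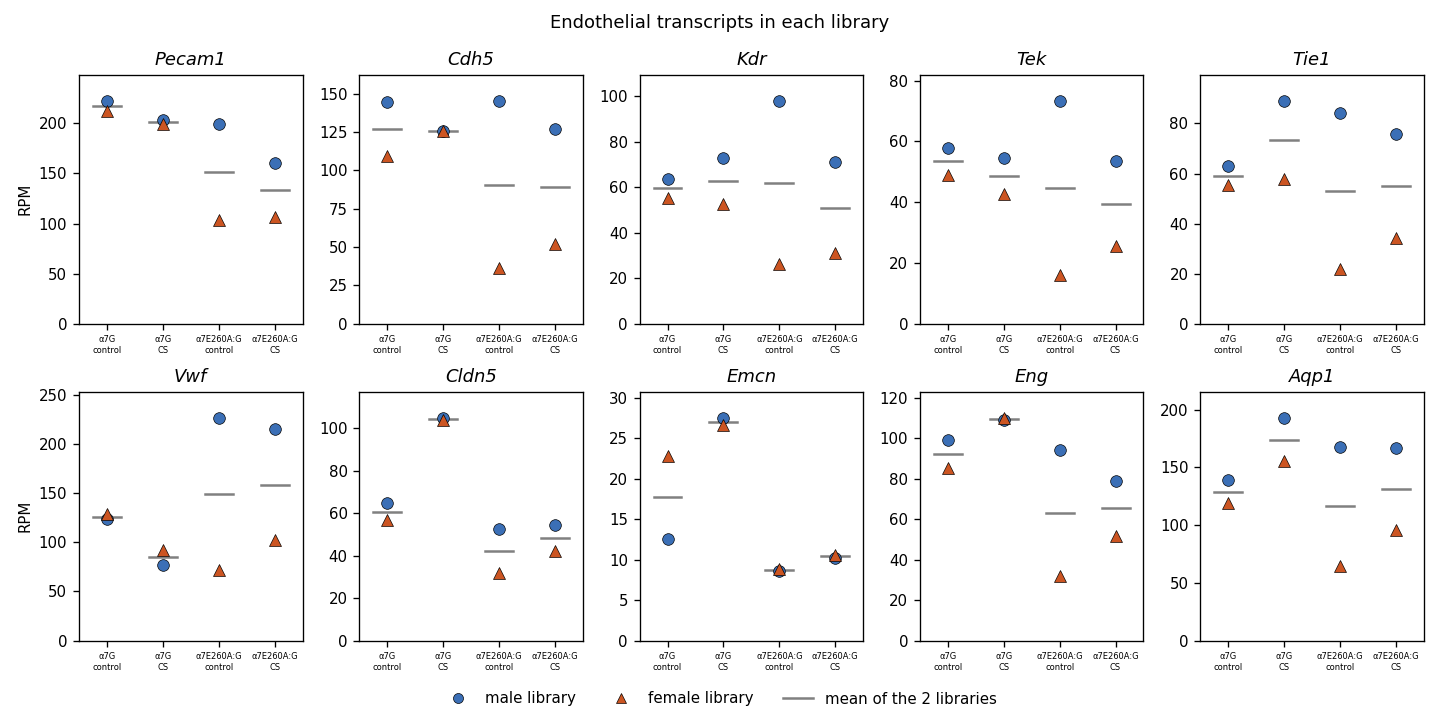
RPM of each of the 10 endothelial transcripts (vertical axis, from 0) in the 4 groups (horizontal axis), with circles for male and triangles for female libraries and a bar at the mean of the 2. In the α7E260A:G groups the triangles lie below the circles for every gene but Emcn, whereas in the α7G groups the 2 symbols lie closer together for most genes.

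Of the junction genes, Cdh5, the adhesion molecule that defines endothelial junctions, was measured at 145 RPM in the male and 109 RPM in the female α7G control and at 126 RPM in both α7G CS libraries. In α7E260A:G it was at 145 RPM in the male and 36.1 RPM in the female control, and at 127 RPM in the male and 51.8 RPM in the female CS library. The 2 female α7E260A:G libraries were therefore the lowest of all 8, and the male α7E260A:G libraries were within the α7G values or just above them. Pecam1 was at 222 and 212 RPM in the male and female α7G controls and at 203 and 199.4 RPM in the α7G CS libraries. It was at 199.5 RPM in the male and 104 RPM in the female α7E260A:G control and at 160.1 and 106 RPM in the male and female α7E260A:G CS libraries. The male α7E260A:G control lay at the level of the lowest α7G library, the other three α7E260A:G libraries lay below all α7G libraries, and Pecam1 was lower in α7E260A:G in 4 of 4 pairs of the same sex and exposure.

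Cldn5, the tight junction protein of endothelium, was at 64.6 and 56.7 RPM in the male and female α7G controls and at 105 and 104 RPM after CS. In α7E260A:G it was at 52.6 and 31.6 RPM in the male and female controls and at 54.4 and 42.3 RPM after CS. Every α7E260A:G library was below every α7G library, and the 2 α7G CS libraries were the highest. Emcn had the fewest counts of the 10, between 71 and 236, and was the only member with a mean count under 200. It was at 12.5 and 22.8 RPM in the male and female α7G controls and at 27.5 and 26.6 RPM in the α7G CS libraries. It was at 8.65 and 8.86 RPM in the α7E260A:G controls and at 10.2 and 10.6 RPM in the α7E260A:G CS libraries, so that here too the 4 α7E260A:G libraries were below the 4 α7G libraries, with no difference between male and female in α7E260A:G beyond their counting error.

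Tek and Tie1, the paired receptors of the angiopoietin system, varied alike in most libraries. From control to CS in male α7G, however, Tek went to 0.945 and Tie1 to 1.41 of the control value. Tek was at 57.7 and 49.0 RPM in the male and female α7G controls, 54.6 and 42.5 RPM after CS in α7G, 73.1 and 16.2 RPM in the male and female α7E260A:G controls, and 53.5 and 25.6 RPM after CS in α7E260A:G. Tie1 was at 63.0 and 55.3 RPM, 88.8 and 57.8 RPM, 84.3 and 21.9 RPM, and 75.8 and 34.2 RPM in the same libraries. In both genes the female library was the lower one in each of the 4 groups, and the 2 female α7E260A:G libraries were the lowest of the 8. The 250 bases before the annotated start of Tek, Tie1 and Cldn5 are given (RefSeq, mouse build GRCm38.p6, 5′ to 3′ on the gene's strand). Every GGAA and its reverse complement TTCC is in capitals, the core that transcription factors of the ETS family bind, among them several known for endothelial genes. Any part of these sites in the levels was not tested.
Tek, chr4:94739039-94739288, plus strand: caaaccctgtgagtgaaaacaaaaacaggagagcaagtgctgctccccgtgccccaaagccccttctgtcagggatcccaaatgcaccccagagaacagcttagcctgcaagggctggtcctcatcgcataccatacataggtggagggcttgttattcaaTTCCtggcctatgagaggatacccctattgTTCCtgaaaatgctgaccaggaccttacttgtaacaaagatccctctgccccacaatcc
Tie1, chr4:118489850-118490099, minus strand: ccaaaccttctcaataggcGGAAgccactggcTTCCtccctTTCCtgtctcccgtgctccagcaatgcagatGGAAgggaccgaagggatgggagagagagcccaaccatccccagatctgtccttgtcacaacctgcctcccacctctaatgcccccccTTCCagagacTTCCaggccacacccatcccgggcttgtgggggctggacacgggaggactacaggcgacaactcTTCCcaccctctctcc
Cldn5, chr16:18776597-18776846, plus strand: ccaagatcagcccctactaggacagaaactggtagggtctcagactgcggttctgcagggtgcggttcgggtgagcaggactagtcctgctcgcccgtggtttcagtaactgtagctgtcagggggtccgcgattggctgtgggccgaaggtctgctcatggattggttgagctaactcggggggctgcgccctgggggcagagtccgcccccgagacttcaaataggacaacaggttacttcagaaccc
GGAA on either strand occurred at 2 places before Tek, at 7 before Tie1 and at 0 before Cldn5. A RefSeq promoter was found for 7 of the 10 members and not for Pecam1, Cdh5 and Vwf, and the other 4, Kdr, Emcn, Eng and Aqp1, held 3 to 5. Such short letters are common: 6 of 7 members and 93.4% of all 27025 mouse promoters held at least one in this window, and the longer AGGAA was in 5 of 7 members against 60.2% of all promoters.

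Kdr, the main VEGF receptor of endothelium, was at 63.7 and 55.2 RPM in the male and female α7G controls and at 72.9 and 52.8 RPM in the α7G CS libraries. It was at 97.6 and 26.1 RPM in the male and female α7E260A:G controls and at 71.1 and 30.9 RPM after CS. The highest and the lowest value of Kdr thus came from the 2 libraries of one group. Eng was at 98.9 and 85.0 RPM in the α7G controls, 109 and 109.8 RPM in the α7G CS libraries, 94.2 and 31.9 RPM in the male and female α7E260A:G controls, and 78.9 and 51.7 RPM after CS. Only the male α7E260A:G control reached the range of the α7G libraries. Aqp1 was at 139 and 119 RPM, 192 and 155 RPM, 168 and 64.4 RPM, and 167 and 95.4 RPM in the same order. Its 2 lowest values were again those of the female α7E260A:G libraries. The 7 red cell genes examined (4 globin genes, Alas2, Slc4a1 and Epb4.2) summed to 9396 RPM in the male α7E260A:G CS library. They summed to 198 to 2176 RPM in the other libraries, with 1307 RPM in the male α7E260A:G control. Any part of red cells in the Aqp1 values was not tested.

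Vwf, the platelet-binding glycoprotein stored in Weibel-Palade bodies, departed from the rest. It was at 123 and 128 RPM in the male and female α7G controls, 77.2 and 92.2 RPM in the α7G CS libraries, 226 and 71.3 RPM in the male and female α7E260A:G controls, and 215 and 102 RPM after CS. Both male α7E260A:G libraries were above all others, and the lowest values were the female α7E260A:G control and the male α7G CS library. Vwf has the longest CDS of the members. Normalised for the CDS length dependence, Vwf was at 96.5 and 145 normalised RPM in the male α7E260A:G control and CS libraries, within the 83.4 to 149.7 RPM of the others.

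The genotypes were compared over both exposures to ask whether the receptor substitution goes with another level of endothelial transcripts. The summed RPM of the 10 members had a mean of 976 ± 67.2 (SD, n = 4) in α7G and 781 ± 355 (SD, n = 4) in α7E260A:G, a log2 ratio of -0.32 that is smaller than the spread among the α7E260A:G libraries. It was -0.11 without the female and -0.57 without the male α7E260A:G control, and -0.19 without the female α7E260A:G CS library. By edgeR's quasi-likelihood test on the counts (log2 fold-changes are on the TMM-normalised scale, α7E260A:G over α7G), 8 of 9 members tested had a log2 fold-change below 0, as did 43.9% of the 7196 genes tested, and the median was -0.29 over the members and 0.04 over all genes. The members' median was -0.059 without the female and -0.82 without the male α7E260A:G control, and -0.56 and -0.14 without the male and the female α7E260A:G CS library. None of the 9 passed an adjusted p of 0.05, which 0.0834% of the genes did. At an unadjusted p under 0.05 there were 3 of 9 members and 11.9% of all genes, and DESeq2 called 1 member, Cldn5, and 5.93% of all genes.

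The 3 members with an unadjusted p under 0.05 were Cldn5, with a log2 fold-change of -0.78 ± 0.15 (SE; edgeR adjusted p = 0.106), Pecam1, with -0.53 ± 0.18 (edgeR adjusted p = 0.275), and Eng, with -0.63 ± 0.26 (edgeR adjusted p = 0.412). Emcn, tested among the 14140 genes kept by edgeR's filterByExpr, was at -1.11 ± 0.26 (edgeR adjusted p = 0.152). In RPM, Cldn5 and Emcn, 2 of 10 members, were the ones without overlap between the genotypes, against 5.46% of the 14140 genes with all α7E260A:G libraries below. Normalised for the CDS length dependence, Pecam1 (124.6 to 155.5 normalised RPM in α7E260A:G against 181.5 to 221.8 in α7G), Emcn and Eng (43.1 to 75.0 against 78.0 to 119.5) were without overlap. Cldn5 then overlapped, at 64.8 in the male α7E260A:G control against 55.9 in the female α7G control. No share over all genes is given on that scale. The receptors were nearer to 0, with log2 fold-changes of -0.29 ± 0.39 for Tek, -0.29 ± 0.37 for Tie1 and -0.13 ± 0.37 for Kdr, and without the female α7E260A:G control the values of Tek and Kdr were 0.030 and 0.16. Vwf lay on the other side, at 0.57 ± 0.32. Whether a transcript is lower because there were fewer endothelial cells or because each cell held less of it cannot be told apart in these bulk libraries.

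With the CDS length offset the receptors moved away from 0 and Vwf and Aqp1 towards it. Pecam1 was at -0.58 ± 0.11 and passed the threshold (edgeR adjusted p = 0.0204), where 6.63% of the 7196 genes did, Tek and Tie1 were both at -0.50, Kdr at -0.41, Cdh5 at -0.60, Cldn5 at -0.68 and Eng at -0.68, Aqp1 at -0.14 ± 0.34, and Vwf was at 0.07 ± 0.14. With the offset and sex as a replicate block Pecam1 and Eng passed (9.38% of genes), and with the offset among 14140 genes Pecam1 and Emcn did (3.49%). The male α7E260A:G control, the library with the steepest length dependence, set part of these values. Without it Cldn5 was at -0.90 and Eng at -1.02 and both passed (edgeR adjusted p = 0.0417 and 0.0378; 1.71% of genes), and 6 of 9 members, Pecam1, Cdh5, Tek, Tie1, Cldn5 and Eng, passed when it was left out and the offset was also used (10.2% of genes).

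**Figure D2:**
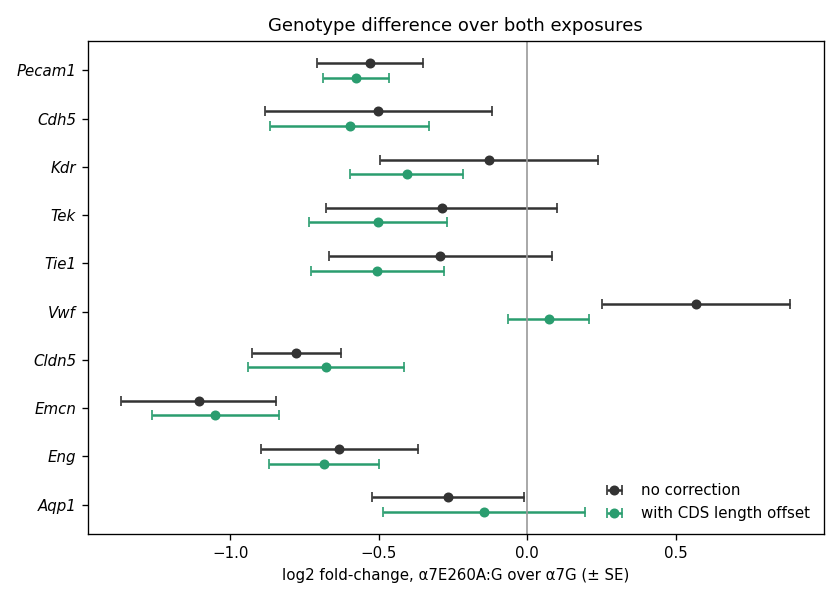
Log2 fold-change of α7E260A:G over α7G over both exposures (horizontal axis) for each member, with bars of ± 1 SE from edgeR, without correction (black) and with the CDS length offset (green); Emcn is from the fit of 14140 genes. All members but Vwf lie below 0 in both, and Vwf moves from 0.57 to 0.07 with the offset.

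Since the 2 libraries of a group differ by sex, male and female libraries were also compared within each genotype, a comparison chosen after the values were seen and fitted with 4 groups of genotype and sex and a term for CS. In α7E260A:G the female mean was 0.323 of the male mean for Cdh5, 0.330 for Tek, 0.338 for Kdr and 0.350 for Tie1. It was 0.393 for Vwf, 0.478 for Aqp1, 0.483 for Eng, 0.584 for Pecam1, 0.690 for Cldn5 and 1.03 for Emcn. Both female libraries were below both male libraries for 9 of 10 members, where 49.7% of the 14140 genes were. In α7G the female mean was between 0.745 of the male mean for Tie1 and 1.24 for Emcn, and both female libraries were below both male ones for 4 of 10 members, Cdh5, Kdr, Tek and Tie1, against 13.0% of the genes.

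By edgeR, 7 of 9 members were lower in female than in male α7E260A:G libraries (adjusted p between 0.0310 and 0.0406), where 28.8% of the 7196 genes passed in either direction and 14.0% passed as lower. The log2 fold-changes of these 7 went from -0.80 ± 0.20 for Aqp1 to -1.35 ± 0.21 for Cdh5, against -0.47 ± 0.17 for Pecam1 and -0.26 ± 0.26 for Cldn5, which did not pass. The call depended on which libraries and genes were in the fit: it was 0 of 9 without any one of the male α7E260A:G control, male α7E260A:G CS, female α7E260A:G control, female α7G control or female α7G CS library (smallest edgeR adjusted p between 0.0645 and 0.195), and 0 of 10 among 14140 genes (smallest 0.0561). In those 5 fits 3 or 4 of the 7196 genes passed, in place of 2070, and 6 among the 14140 genes, while the members' median log2 fold-change was -0.78 to -1.13, against -1.04 with all libraries. The length dependence differed in the same direction, being positive in both male and negative in both female α7E260A:G libraries. With the CDS length offset Cdh5 had a log2 fold-change of -1.04 ± 0.17 (edgeR adjusted p = 0.0379) and Aqp1 of -1.32 ± 0.18 (edgeR adjusted p = 0.0199), where 0.389% of the genes passed, and Vwf was at 0.13 ± 0.15. The other receptors and Cldn5 then had log2 fold-changes between -0.54 and -0.94 and did not pass. In α7G no member passed in either fit, with an unadjusted p under 0.05 for 0 of 9 without the offset (2.89% of genes) and 1 of 9 with it (5.24%). The difference between the genotypes in the female to male ratio had the same sign in 9 of 9 members, at a median of -0.89 on the log2 scale, but no member and none of the 7196 genes passed the test of that difference (5 of 9 members and 20.5% of genes at an unadjusted p under 0.05). Without the female α7E260A:G CS library 3 of 9 members, Cdh5, Tek and Vwf, and 18.6% of the genes passed it.

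**Figure D3:**
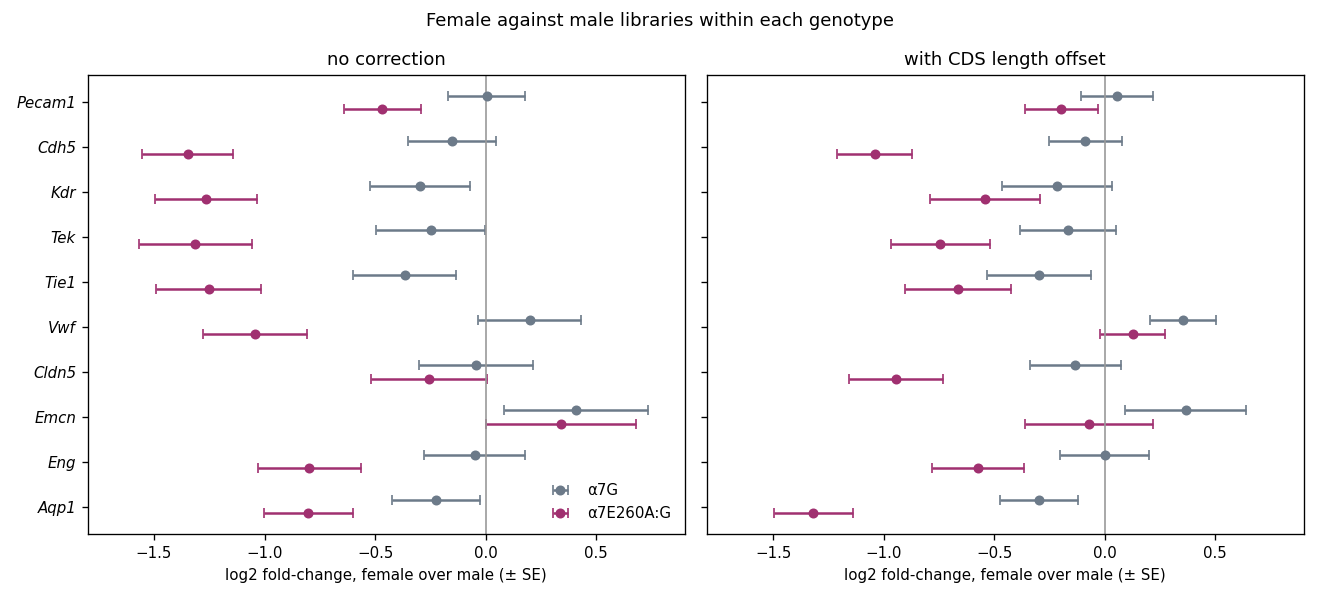
Log2 fold-change of female over male libraries (horizontal axis) for each member in α7G (grey) and α7E260A:G (purple), with bars of ± 1 SE from edgeR, without correction on the left and with the CDS length offset on the right; Emcn is from the fit of 14140 genes. In α7E260A:G the points lie between -1.35 for Cdh5 and 0.34 for Emcn on the left and between -1.32 for Aqp1 and 0.13 for Vwf on the right.

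Within one sex, the ratio of the genotype means in RPM was further from 1 in females than in males for every member but Vwf. The female α7E260A:G mean was 0.374 of the female α7G mean for Cdh5, 0.394 for Emcn, 0.429 for Eng, 0.456 for Tek, 0.460 for Cldn5, 0.496 for Tie1, 0.510 for Pecam1, 0.528 for Kdr, 0.583 for Aqp1 and 0.786 for Vwf. Both α7E260A:G libraries were lower for 9 of 10 members, against 36.3% of the 14140 genes. No member passed in edgeR without the offset (8 of 9 members against 17.0% of genes at an unadjusted p under 0.05; 0.222% of genes passed), and 5 of 9 passed with it, Cdh5 at -1.17 ± 0.17, Cldn5 at -1.15 ± 0.21, Eng at -0.997 ± 0.21, Aqp1 at -0.79 ± 0.18 and Pecam1 at -0.71 ± 0.17 (edgeR adjusted p between 0.0105 and 0.0338; 6.23% of genes passed). Without the female α7E260A:G CS library and without the offset 3 of 9 members and 8.55% of genes passed. In males the α7E260A:G mean was within 0.834 to 1.23 of the α7G mean for Pecam1, Cdh5, Kdr, Tek, Tie1, Eng and Aqp1, 0.632 for Cldn5, 0.472 for Emcn and 2.20 for Vwf. Both male α7E260A:G libraries were below both male α7G libraries for 4 of 10 members, Pecam1, Cldn5, Emcn and Eng, against 20.4% of the 14140 genes, and above them for 1 of 10, Vwf, against 22.4%. These 4 were below in both sexes, a condition for which no share over all genes is given. In edgeR on the 4 male libraries alone and without the offset Vwf passed as higher, where 15.5% of genes passed. In the fit by genotype and sex the largest log2 fold-change of a member in males was 1.10 without the offset. With the offset it was 0.23, 7 of 9 members were below 0 in place of 5, and none passed in either fit.

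CS was compared with control in each genotype to ask whether 4 months of smoke changed these transcripts. In α7G, Cldn5 was higher after CS in both sexes, at 1.72 times the control mean in RPM (104 ± 0.595 against 60.6 ± 5.59 RPM, SD, n = 2), Emcn was at 1.53 times, Aqp1 at 1.35 times and Eng at 1.19 times. For these 4 of 10 members both CS libraries were above both controls, against 21.3% of the 14140 genes, and for Pecam1 and Vwf both were below, against 36.1%. Among the genes tested by edgeR none passed for CS in α7G (0% of 7196; 1 of 9 members, Cldn5, and 6.77% of genes at an unadjusted p under 0.05). Cldn5 had a log2 fold-change of 0.91 ± 0.21 (edgeR adjusted p = 0.588), and it passed in DESeq2 (adjusted p = 0.0232; 0.347% of genes) and in edgeR on the 4 α7G libraries alone (adjusted p = 0.0180; 16.1% of genes). The 3 members with the shortest CDS, Cldn5, Emcn and Aqp1, were also the 3 with the highest CS to control ratios of RPM in α7G, and the length dependence changed from positive in both α7G controls to negative in both α7G CS libraries. With the CDS length offset Cldn5 was at 0.44 ± 0.37, Emcn at 0.44 ± 0.30 and Aqp1 at 0.20 ± 0.48, while Vwf turned from -0.45 ± 0.45 to 0.47 ± 0.19. All 9 members were then above 0, where 50.3% of genes were below it, at a median of 0.44 against -0.0029 over all genes, with 3 of 9 and 8.09% of genes at an unadjusted p under 0.05 and none past the threshold.

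In α7E260A:G, CS and control means differed by less than the spread between the 2 libraries for 9 of 10 members. The CS to control ratio of mean RPM went from 0.824 for Kdr to 1.19 for Emcn, and Emcn was the only member with both CS libraries above both controls, against 15.6% of the 14140 genes. None of the 9 members passed in edgeR, and none had an unadjusted p under 0.05, against 1.68% of genes; DESeq2 called none as well. The members' median log2 fold-change of 0.029 rested on single libraries: it was 0.77 without the male control, with 9 of 9 members above 0 and 6 of 9 at an unadjusted p under 0.05 (7.64% of genes), -0.50 without the female control, -0.44 without the male CS library and 0.21 without the female CS library, and no member passed in any of these fits. Between the genotypes the CS response differed most for Cldn5, by -0.77 ± 0.30 on the log2 scale (edgeR adjusted p = 0.997, unadjusted 0.0374), and no member passed (1 of 9 against 1.45% of genes at an unadjusted p under 0.05; none by DESeq2). The members' median of this difference was -0.34, but 0.46 without the male and -0.82 without the female α7E260A:G control. Over both genotypes together, CS gave log2 fold-changes between -0.19 ± 0.32 for Vwf and 0.52 ± 0.15 for Cldn5 and no member passed in edgeR or DESeq2 (1 of 9 members, Cldn5, against 7.59% of genes at an unadjusted p under 0.05). By sex there was 1 library on each side and so no test, and no share over all genes is given. In RPM the female α7E260A:G CS library was above the female control for all 10 members. The ratios went from 1.02 for Pecam1 to 1.62 for Eng, and that control had the lowest share of counts in the members of all libraries. The male ratios went from 0.728 for Kdr to 1.18 for Emcn, and only Cldn5 and Emcn were above the male control.

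The other genes of the endothelial programme were read from lists that share a few genes, such as Esam, Flt1 and Ptprb. Of 25 further endothelial genes, 16 were abundant enough for the fit and 12 had a log2 fold-change below 0 between the genotypes, with a median of -0.58 against 0.04 over all genes. None passed in edgeR (9 of 16 against 11.9% of all genes at an unadjusted p under 0.05). With the offset 4 of 16 were lower and 0 higher, where 6.63% of all genes passed in either direction. The list summed to 1353 to 1664 RPM in α7G, to 1458 and 1310 RPM in male and to 631 and 824 RPM in female α7E260A:G, so that the 2 female α7E260A:G libraries were the lowest here too. Between female and male α7E260A:G libraries 4 of 16 were lower and 0 higher, against 14.0% of all genes lower. The list had 2 of 16 lower with the offset, where 0.389% of all genes passed, and 0 of 25 passed under filterByExpr. Its 3 most abundant genes were Gpr116, an adhesion receptor of lung endothelium and alveolar cells, at 252 ± 56.2 RPM in α7G and 148 ± 78.8 RPM in α7E260A:G, S1pr1, the sphingosine-1-phosphate receptor, at 135 ± 11.4 and 83.0 ± 20.9 RPM, and the adhesion molecule Icam2 at 129.9 ± 42.1 and 71.1 ± 9.58 RPM (SD, n = 4 each). In RPM, S1pr1 and Icam2, 2 of these 3, did not overlap between the genotypes, against 5.46% of the 14140 genes with all α7E260A:G libraries below.

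The ligands, co-receptors and signal carriers of the VEGF, angiopoietin and BMP pathways, 26 genes of which 14 were tested, lay mostly above 0 between the genotypes. Only 4 of the 14 were below 0, and the median was 0.30. None passed without the offset (5 of 14 against 11.9% of all genes at an unadjusted p under 0.05). With it 2 of 14 passed (6.63% of all genes), both higher (Nrp2 and Tgfbr1, named after their values were seen). Nrp2, a co-receptor of VEGF-C and semaphorins, had a log2 fold-change of 1.37 ± 0.28 without and 1.22 ± 0.16 with the offset (edgeR adjusted p = 0.111 and 0.00607). The 3 most abundant were Tgfbr2, the type II TGF-β receptor, at 201 ± 35.7 RPM in α7G and 259.8 ± 90.8 RPM in α7E260A:G, its ligand Tgfb1 at 169 ± 18.0 and 202 ± 29.2 RPM, and Id2 at 155 ± 22.0 and 143 ± 35.8 RPM. Between female and male α7E260A:G libraries 11 of 14 were below 0, 1 was higher and 6 were lower, against 14.0% of all genes lower. None passed with the offset, where 14 of 14 were below 0, and none passed under filterByExpr. The 26 genes summed to 1922 and 1666 RPM in male and 926 and 1132 RPM in female libraries. The angiopoietins themselves were low, with means of 9.44 RPM for Angpt1, 4.86 RPM for Angpt2 and 1.02 RPM for Angpt4. Of 15 junction genes 10 were tested and 5 were below 0, with a median of -0.02. None passed without the offset (1 of 10 against 11.9% of all genes at an unadjusted p under 0.05). With it 1 of 10 passed (6.63% of all genes), as lower (Esam, also named after its values were seen). The most abundant were the catenins Ctnnb1 and Ctnna1 and F11r, all of which epithelium also uses. Their ranges overlapped between the genotypes.

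Of 10 coagulation and Weibel-Palade genes 3 were tested, and all 3 had a log2 fold-change below 0, at a median of -0.41. None passed without the offset (1 of 3 against 11.9% of all genes at an unadjusted p under 0.05). With it 1 of 3 passed as lower, where 6.63% of all genes passed in either direction. Thbd, thrombomodulin, was at 195 ± 15.7 RPM in α7G and 147 ± 67.5 RPM in α7E260A:G, F3, tissue factor, at 48.4 ± 9.96 and 27.7 ± 11.5 RPM, and Plat, the tissue plasminogen activator, at 29.0 ± 5.71 and 21.4 ± 5.94 RPM (SD, n = 4 each), and the ranges of each overlapped between the genotypes. Selp, stored beside Vwf, had a mean of 1.61 RPM. Genes of vessel types were mostly sparse: summed over the lists, 7 aerocyte genes were at 229 to 527 RPM over the 8 libraries and 6 general capillary genes at 714 to 1228 RPM, of which Cd36 alone had a mean of 858 RPM. The 7 artery genes summed to 35.4 to 100.4 RPM, the 6 vein genes to 40.6 to 122 RPM and the 6 lymphatic genes to 83.0 to 349 RPM, with the lymphatic chemokine Ccl21a at 0 in all libraries. The lymphatic sum was 332 and 349 RPM in male and 83.0 and 140 RPM in female α7E260A:G libraries. In the female ones 4 of 4 lymphatic genes tested were lower, against 14.0% of all genes. With the offset 1 of 4 passed as lower (0.389% of all genes passed) and under filterByExpr 0 of 5 did, though all stayed below 0 in both. No gene of these 5 lists passed for genotype without the offset. With it 1 of 2 aerocyte and 1 of 4 general capillary genes tested were lower and 1 of 4 lymphatic genes was higher. Of all genes 6.63% passed there in either direction.

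The 10 genes whose level followed the mean log2(RPM + 0.5) of the members most closely over the 8 libraries were Rasip1, Sema3f, Rbm14, Thbd, Jup, Phc2, Rgs12, Pcdh1, Acvrl1 and Dhx32, with Pearson's r between 0.971 and 0.981. Of these, Thbd, Jup and Acvrl1 are in the endothelial lists above, and Rasip1 is known for a role in vessel tube formation. Each point is a library, and the r is a description, since the 8 libraries fall into groups and share depth and length dependence. Among the members themselves, r to the mean of the other nine was 0.904 or higher for Pecam1, Cdh5, Kdr, Tek, Tie1, Eng and Aqp1, 0.743 for Cldn5, 0.379 for Emcn and 0.375 for Vwf.

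**Figure D4:**
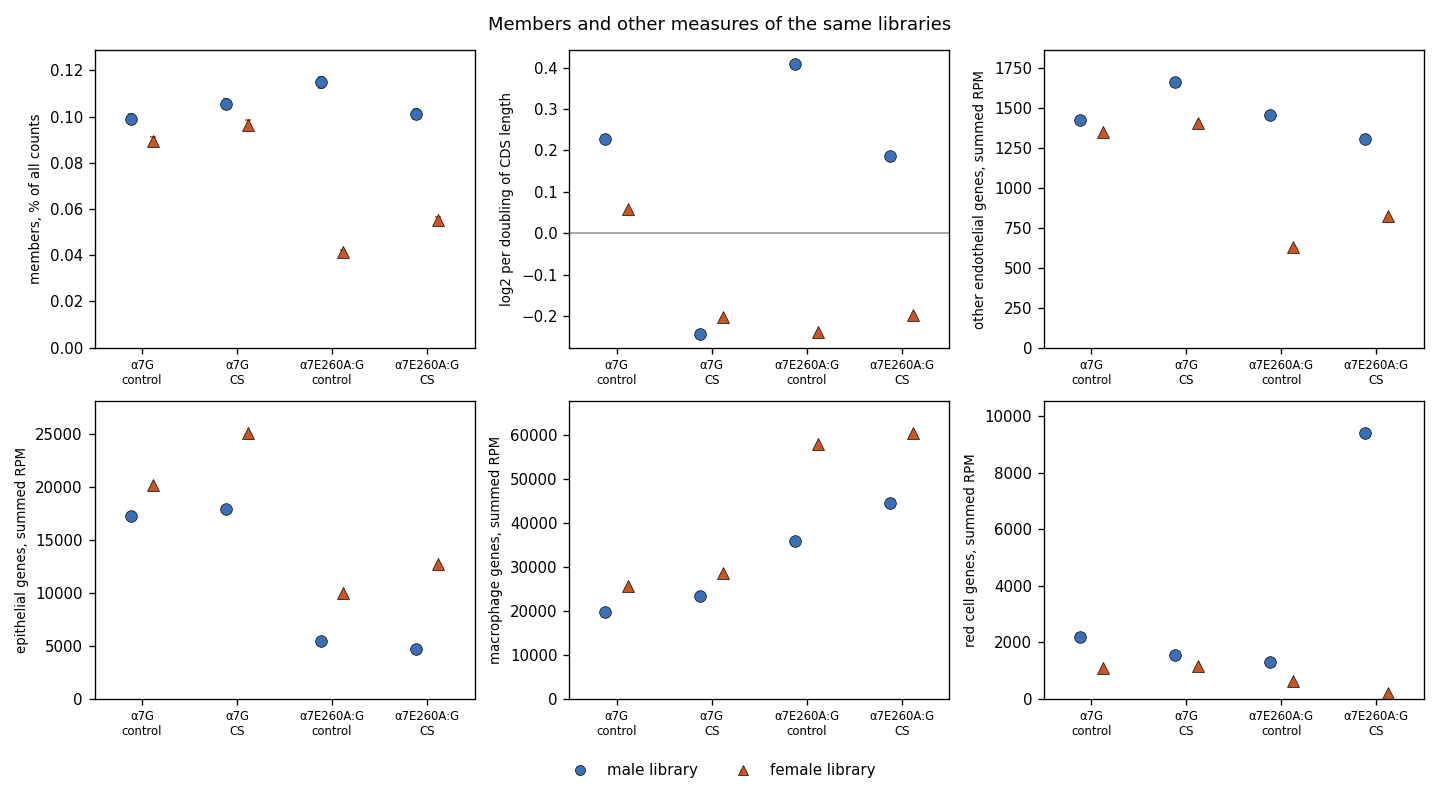
Share of all counts in the 10 members with 95% Wilson intervals, change in log2 level per doubling of CDS length, and summed RPM of 25 other endothelial, 12 epithelial, 10 macrophage and 7 red cell genes (vertical axes) in the 4 groups (horizontal axes), with circles for male and triangles for female libraries. The female α7E260A:G libraries are lowest for both endothelial measures and highest for the sum of the macrophage genes, at 57902 and 60432 RPM.

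Other cell types differed between the same libraries, which bears on what the endothelial transcripts are a share of. The 12 epithelial genes summed to 17295 to 25103 RPM in α7G and 4705 to 12766 RPM in α7E260A:G. Within α7E260A:G they were at 5480 and 4705 RPM in male and 9975 and 12766 RPM in female libraries, the reverse of the endothelial order. The 10 macrophage genes summed to 19720 to 28602 RPM in α7G, 35863 and 44580 RPM in male and 57902 and 60432 RPM in female α7E260A:G libraries. This sum was highest where the members were lowest, but gene by gene it was mixed. Between female and male α7E260A:G libraries 5 of 10 had a log2 fold-change below 0 (median 0.10), and 0 of 10 with the offset (median 0.36). The 10 fibroblast genes summed to 1479 to 2817 RPM in α7G. In α7E260A:G they summed to 3336 and 3558 RPM in male and 1166 and 2539 RPM in female libraries. In the female ones 5 of 9 tested were lower, the same direction as the members. Of the red cell genes 4 of 5 tested were lower there as well, where 14.0% of all genes were. No gene of these 2 lists passed with the offset or under filterByExpr, while 8 of 9 and 5 of 5 were below 0 with the offset. The lists of 10 pericyte and smooth muscle genes and of 8 genes of other leukocytes summed to 53.9 to 87.7 RPM and to 2218 to 4021 RPM over the 8 libraries. The 8 platelet and megakaryocyte genes, a cell type that also holds Vwf and Pecam1, summed to 28.3 to 98.1 RPM, with the platelet genes Gp9, Gp1ba and Gp6 at 0 counts in at least 1 library. The part of these cell types in the differences of the endothelial transcripts was not tested.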

How the data were processed

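Distal lung cells of α7G and α7E260A:G mice, control or CS, were sequenced as 8 libraries, which the labels place in 4 groups of 1 male and 1 female. Per the study's methods, the authors made stranded poly(A) libraries, aligned reads with STAR to mm9 (NCBIM37) and counted reads on the CDS of GENCODE M1 with htseq-count. The deposited values are raw counts per gene without normalization. Symbols, identifiers and CDS lengths were matched to GENCODE M1 for all genes.

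RPM were computed from each library's total count. Genes averaging 200 counts or more, without immunoglobulin, histocompatibility, Gm and ribosomal protein genes (7196, of them 9 members), were tested with edgeR 4.0.16 (R 4.3.3, limma 3.58.1), glmQLFit and glmQLFTest, TMM, with 1 coefficient per group and Benjamini-Hochberg adjusted p-values called under 0.05; Emcn was taken from the 14140 genes of filterByExpr. The CDS length offset subtracts a lowess curve (span 0.667), fitted per library to the log2 deviations of genes against log2 CDS length. Alternatives were DESeq2 1.42.0, other filters and scaling, a block for sex, the 4 libraries of a comparison and leaving out each library; the fits were tested on simulated data. Intervals of shares are 95% Wilson intervals and the floor is 3 counts. Other steps used Python 3.11.15, numpy 2.4.6, pandas 2.3.3, scipy 1.17.1 and matplotlib 3.10.9.

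The members and lists were chosen with earlier results of these data known, and 2 list genes are not reported here and were left out of the list counts and sums. Named from the lists are the 3 genes with the highest mean RPM, in the endothelial lists, and the 10 genes most correlated with the members; Epcam, Nrp2, Tgfbr1, Selp, Ccl21a and the angiopoietins were named after their values were seen. The fits by genotype and sex, and those joining the offset with another filter or a left-out library, were also added then.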

Additional observations from a re-analysis of the deposited data

Results flagged for a closer look

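Of 40 sets of 4 libraries examined (each member in each genotype and in each exposure), 1 held a library that stood apart by Dixon's test, where chance gives about 1 in 20. Among the 4 CS libraries, Cdh5 was at 51.8 RPM in the female α7E260A:G library and at 126 to 127 RPM in the others, a gap of 0.980 of the whole range. The 10 members together took 0.0550% of all counts in this library, the second lowest share of the 8.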

How the results depend on the processing

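No member passed for CS over both genotypes, for CS in α7E260A:G or for the difference of the CS responses under any alternative run. For genotype, 0 members passed, but 1 did by DESeq2 (Cldn5), 1 with the CDS length offset (Pecam1), 2 with the offset and sex as a replicate block (Pecam1 and Eng; 675 of 7196 genes), 2 with the offset among 14140 genes (Pecam1 and Emcn; 494 genes), 1 in male libraries alone (Vwf; 1114 of 7196 genes), 0 to 2 on leaving out each library (2 without the male α7E260A:G control), and 6 without that library and with the offset; the cause was not tested. For CS in α7G, 1 (Cldn5) passed by DESeq2 and in the fit of the 4 libraries, against 0. For female against male in α7E260A:G the count was 7, but 2 with the offset, 0 among 14140 genes without or with it, and 0 to 7 on leaving out each library. For α7E260A:G against α7G in females it was 0, but 5 with the offset, 2 among 14140 genes with it, and 0 to 3 on leaving out each library (3 without the female α7E260A:G CS library, where 615 of 7196 genes passed, against 16 with all libraries). For the difference of the female to male ratio between the genotypes it was 0, and 0 to 3 on leaving out each library (3 without the female α7E260A:G CS library, where 1340 genes passed). The log2 fold-change for genotype changed sign for Kdr without the female α7E260A:G control (0.16), without the female α7E260A:G CS library (0.07) and in males alone (0.21), for Tek without the female α7E260A:G control (0.030) and in males alone (0.081), for Tie1 in males alone (0.018) and for Vwf in females alone (-0.21); over all left-out libraries Kdr ranged from -0.64 to 0.16 and Tek from -0.90 to 0.030. For CS in α7G, Vwf changed sign with the offset (0.47), with the offset and the block (0.48), with the offset and without the male α7E260A:G control (0.47) and with the offset among 14140 genes (0.44). Same-sex libraries of different groups deviated together with correlations between -0.10 (α7G CS and α7E260A:G control) and 0.84 (α7E260A:G control and CS), so the sexes were not taken as pairs over all groups. In α7E260A:G the spread within a group thus holds a difference between the male and the female library that both groups share. These correlations are without correction for CDS length, on which the male and female α7E260A:G libraries also differed. How much of the shared difference goes with sex was not tested. With sex as a replicate block and no offset, 0 members passed in each of the 5 comparisons. For CS in α7E260A:G 0 of 9 then had an unadjusted p under 0.05, at a median log2 fold-change of 0.083. With 2 libraries in a group, 1 of each sex, sex and the spread between libraries cannot be told apart, and a library left out leaves a lone sample assumed to vary like the rest.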
